A study of Homo sapiens with 6 samples.

Results

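The enzymes that carry squalene to cholesterol were examined through 9 genes, FDFT1, SQLE, LSS, CYP51A1, MSMO1, NSDHL, EBP, SC5D and DHCR7. They were chosen by symbol as named steps of sterol synthesis, with earlier results of these data known. All 9 were found among the 26364 genes of the table, and all 9 had enough reads to be tested. The cells were MV4-11, an established human acute myeloid leukaemia line whose FLT3 gene, which encodes a receptor tyrosine kinase, carries an internal tandem duplication. All cells grew in serum-containing RPMI1640 medium, and for 18 hours they received either the vehicle DMSO (3 libraries) or 22d, known as an inhibitor of the deacetylase HDAC8, at 10 nM as labelled (3 libraries). The series concerns FLT3, HDAC8, FOXO factors and p53 in FLT3-mutant leukaemia, and the comparison asks which transcripts differ with 22d. One line at one time point was used, and the labels leave unsaid if the numbered libraries stem from different cultures; p-values therefore cover the spread of these 3 and 3 libraries alone, and that spread may be technical.

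Cells make cholesterol from acetyl-CoA. The mevalonate arm builds the isoprenoid farnesyl pyrophosphate, squalene synthase joins a pair of these into squalene, and the sterol arm oxidises, closes and trims squalene to cholesterol in the membrane of the endoplasmic reticulum. Many genes of both arms are targets of the transcription factor SREBP-2, which is released for cleavage when sterols in that membrane run low and is held back by INSIG proteins when they are plentiful. Cholesterol is needed for membrane growth, and myeloid leukaemia cells both make it and take it up.

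Of the 9 genes, 8 rose with 22d and none fell, and 7 of them rose at least 2-fold. The largest changes were those of MSMO1, DHCR7, LSS and CYP51A1, between 6.33 and 7.80 times the DMSO mean, followed by SC5D at 5.97, FDFT1 at 3.67 and SQLE at 3.56 times. NSDHL rose to only 1.30 times and EBP, at 1.20 times, did not pass the test. A gene was called at a limma adjusted p under 0.05 over 13297 genes whose mean reached 10 normalized counts, that is, read counts divided by the authors' size factor of the library. By the same rule 28.5% of all genes tested were called higher and 29.6% lower, and 9.90% were called at least 2-fold higher. The median log2 fold change of the 9 genes was 2.54, beside 0.01 over all genes tested. Log2 fold changes are on the log2(normalized count + 1) scale. In RNA from bulk cells, fewer cells that express a gene and less of its RNA per cell cannot be told apart.

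The libraries held between 19995430 and 23749257 reads in genes, and 22d replicate 3 had reads in more genes (19285) than the other 5 libraries (16268 to 17055). All 8 myeloid leukaemia markers looked up (FLT3, CD33, SPI1, MPO, CSF1R, HOXA9, MEIS1 and ITGAM) had reads. Of 10 markers of other cell types, 3 were at 0 in every library, CD3D and MS4A1 among them, and 5 more (CD3E, HBB, COL1A1, EPCAM and ALB) did not exceed 15.1 normalized counts. PECAM1, an endothelial marker that myeloid cells can also carry, rose from 249 ± 54.6 to 529 ± 46.0 (SD, n = 3 each). Of the 8 myeloid markers 3 rose, CSF1R by 0.78, ITGAM by 0.80 and FLT3 by 0.42 on the log2 scale, and MPO fell by 2.59. Over all genes tested 28.5% rose and 29.6% fell. The summed level of these 10 other-cell markers lay between 312 and 440 normalized counts with DMSO and between 574 and 692 with 22d, and its part in the results below was not tested.

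**Figure D1:**
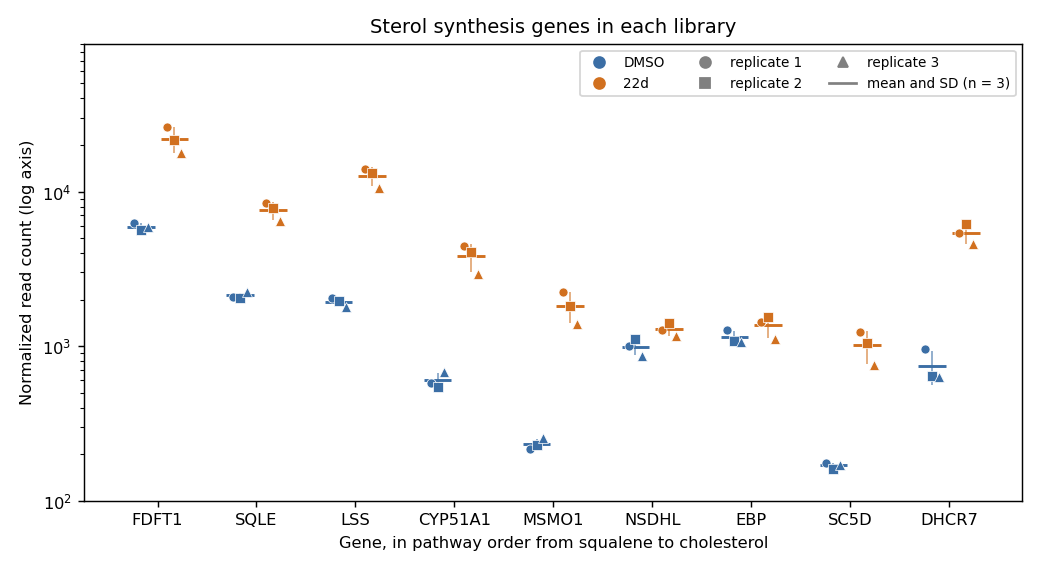
Normalized read counts (log axis) of the 9 genes in pathway order, with DMSO in blue and 22d in orange; symbols mark the replicate number, and bars give the mean and SD of 3 libraries. For 8 genes every 22d library lies above every DMSO library, whereas the EBP groups overlap, with 22d replicate 3 at 1107 below DMSO replicate 1 at 1279.

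FDFT1 (chromosome 8, 11795573 to 11839309, plus strand) encodes squalene synthase, the first enzyme committed to sterols. Its normalized counts were 6234, 5656 and 5921 in DMSO replicates 1 to 3 and 26039, 21625 and 17726 in the 22d replicates. The groups lay far apart, with a log2 fold change of 1.86 (SE 0.13) at a limma adjusted p of 2.1e-07. SQLE (chromosome 8, 124998497 to 125022283, plus strand) encodes squalene epoxidase, an oxygen-dependent and rate-limiting step. Its DMSO libraries held 2094, 2059 and 2233 normalized counts and its 22d libraries 8456, 7824 and 6423. SQLE thus rose by 1.82 in log2 units (SE 0.12, limma adjusted p = 9.7e-08). In both genes 22d replicate 3 was the lowest of the treated libraries and still stood well above every DMSO library.

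LSS (chromosome 21, 46188141 to 46228824, minus strand) encodes lanosterol synthase, which folds squalene epoxide into lanosterol, the first sterol. LSS counts of 2044, 1973 and 1799 in the DMSO libraries stood against 13958, 13255 and 10582 after 22d, and the log2 fold change was 2.69 (95% interval 2.44 to 2.95). CYP51A1 (chromosome 7, 92112151 to 92134803, minus strand) encodes the cytochrome P450 that removes a methyl group from lanosterol. It went from 577, 547 and 683 normalized counts to 4459, 4044 and 2933, up by 2.64 in log2 units (SE 0.15, limma adjusted p = 5.6e-08). The antisense gene CYP51A1-AS1, which shares 138 exon bases with CYP51A1 in GENCODE 29, held at most 4.56 normalized counts in any library. Other GENCODE 29 genes outside the table share exon bases with CYP51A1 (protein-coding genes on the same strand, 2844 and 99 bases). The same holds for LSS (antisense genes, 448 and 122 bases) and FDFT1 (217 bases on the opposite strand). Reads of the same-strand partners cannot be told apart by strand. Those of the opposite-strand partners cannot be told apart either, since the strand setting is not given in the sources used here.

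The next steps strip methyl groups from the sterol ring, and here neighbouring enzymes differed. MSMO1 (chromosome 4, 165327623 to 165343160, plus strand) encodes the methylsterol oxidase that starts this removal. From 216, 229 and 254.5 normalized counts under DMSO it reached 2230, 1820 and 1401 under 22d, the largest rise of the 9, at 2.94 in log2 units (SE 0.16, limma adjusted p = 4.3e-08). NSDHL (chromosome X, 152830967 to 152869729, plus strand) encodes the dehydrogenase that acts on the product of MSMO1. The DMSO libraries held 998, 1105 and 870 normalized counts of NSDHL, the 22d libraries 1281, 1407 and 1171. The groups did not overlap, but the log2 fold change was only 0.38 (95% interval 0.11 to 0.64, limma adjusted p = 0.018), and NSDHL no longer passed without DMSO replicate 3 (0.29, adjusted p = 0.074) or without 22d replicate 2 (0.31, adjusted p = 0.083). In the authors' deposited table NSDHL had a log2 fold change of 0.37 and an adjusted p of 0.0143.

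EBP (chromosome X, 48521158 to 48528716, plus strand) encodes the sterol isomerase that shifts a double bond in the ring. Under DMSO its counts were 1279, 1078 and 1056 and under 22d 1433, 1544 and 1107, so the lowest 22d library lay within the DMSO range. The log2 fold change of 0.25 did not pass (95% interval -0.05 to 0.55, limma adjusted p = 0.13). That interval allows a fold change from 0.969 to 1.46, and its upper end lies under the lowest bound of the 7 genes that rose at least 2-fold, 2.97-fold for SQLE. EBP passed without 22d replicate 3 (0.39, adjusted p = 0.028), with quantile normalization (0.38, adjusted p = 0.032) and with scaling by library totals (0.47, adjusted p = 0.0096). In the authors' deposited table EBP stood at 0.25 with an adjusted p of 0.147.

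SC5D (chromosome 11, 121292453 to 121308694, plus strand) encodes a sterol desaturase that adds a ring double bond. With DMSO it stood at 175, 161 and 171 normalized counts and with 22d at 1231, 1049 and 753, higher by 2.54 in log2 units (SE 0.17, limma adjusted p = 1.3e-07). DHCR7 (chromosome 11, 71428193 to 71452868, minus strand) encodes the reductase that removes another ring double bond to give cholesterol. The 22d libraries held 5420, 6181 and 4574 normalized counts against 954, 637 and 634 under DMSO, and DMSO replicate 1 stood above the other DMSO libraries. DHCR7 changed by 2.88 in log2 units (SE 0.16, limma adjusted p = 4.9e-08), and by 3.07 without that library. With 1 library left out at a time, the 7 genes that rose at least 2-fold passed every time, SQLE and FDFT1 at no less than 1.74 and 1.72 and MSMO1 at up to 3.11.

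**Figure D2:**
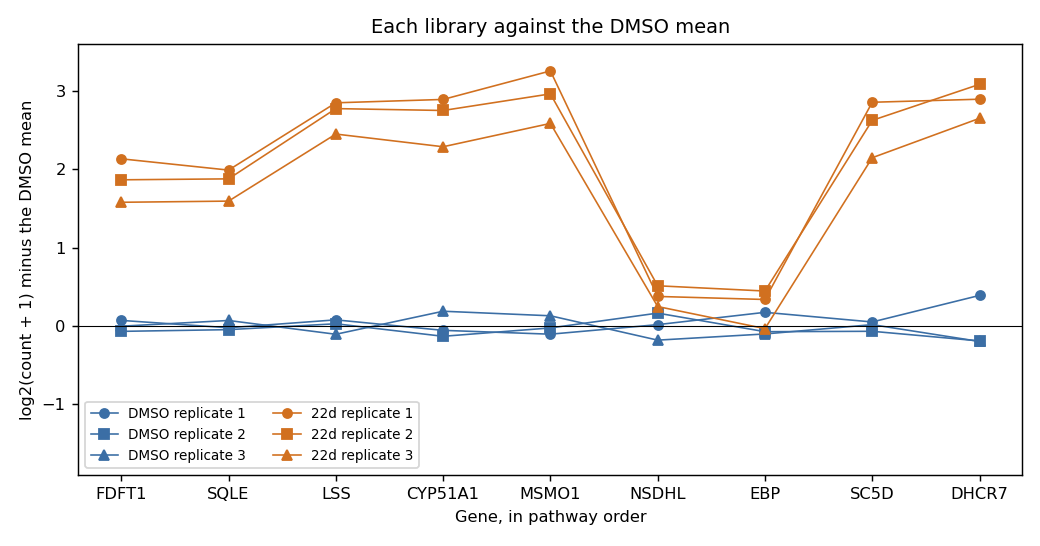
Each library's log2(normalized count + 1) minus the mean of the 3 DMSO libraries, for the 9 genes in pathway order, with 1 line per library (DMSO blue, 22d orange). The 22d lines run between 1.58 and 3.26 for 7 genes, drop to between -0.03 and 0.51 at NSDHL and EBP, and 22d replicate 3 is the lowest of the treated lines at every gene.

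In all 9 genes 22d replicate 3 was the lowest treated library, and 22d replicate 1 was the highest in 6 and 22d replicate 2 in 3. Among the 3784 genes called higher in the whole table, 22d replicate 3 was the lowest treated library in 43.3% and 22d replicate 1 the highest in 62.0%. The median change of the 9 genes from the DMSO mean was 2.85, 2.63 and 2.15 on the log2 scale in 22d replicates 1 to 3. Over the genes called higher in the whole table these medians were 0.89, 0.75 and 0.74. Lowest 22d library above highest DMSO library held for 8 of the 9 genes and for 32.1% of all genes tested.

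A ratio of neighbouring genes within a library does not depend on library scaling, and its change between groups does not depend on gene length. The log2 ratio of SQLE to FDFT1 was -1.48 ± 0.086 in the DMSO and -1.52 ± 0.091 in the 22d libraries (SD, n = 3 each), so both genes shifted by about the same amount. The ratio of LSS to SQLE went from -0.14 ± 0.15 to 0.73 ± 0.022, and that of MSMO1 to CYP51A1 from -1.36 ± 0.093 to -1.07 ± 0.076 (SD, n = 3 each). NSDHL exceeded MSMO1 by 2.08 ± 0.27 on the log2 scale with DMSO and lay 0.48 under it with 22d (ratio -0.48 ± 0.29), and the ratio of SC5D to EBP went from -2.74 ± 0.12 to -0.44 ± 0.20 (SD, n = 3 each). These 4 ratios did not overlap between the groups, with an exact two-sided permutation p = 0.10 each, the smallest that 3 against 3 libraries allow, and 0.20 after Benjamini-Hochberg adjustment over the 8 pairs. The other 4 pairs overlapped, with changes between -0.13 (NSDHL to EBP) and 0.33 (SC5D to DHCR7) and exact permutation p between 0.20 and 0.80.

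Levels can be set against each other per length. By normalized counts per kilobase of GENCODE 29 exon, FDFT1 was the highest of the 9 genes in both groups (DMSO 1141 ± 55.6, 22d 4190 ± 800; SD, n = 3 each) and SC5D the lowest (30.4 ± 1.28 and 182 ± 43.3). With DMSO, NSDHL, SQLE and EBP followed FDFT1 at 496 ± 58.9, 495 ± 21.4 and 472 ± 51.0 per kilobase, by this length closer to each other than their spread, then LSS at 268 ± 17.4, DHCR7 at 178 ± 44.1, CYP51A1 at 168 ± 20.0 and MSMO1 at 80.6 ± 6.76. DHCR7 and CYP51A1 did not differ beyond their spread. With 22d, SQLE (1758 ± 242) and LSS (1741 ± 246) came next to FDFT1, then DHCR7 (1296 ± 193) and CYP51A1 (1064 ± 220), while NSDHL (644 ± 59.2), MSMO1 (628 ± 143) and EBP (565 ± 94.3) formed a group within their spread. Per kilobase of the longest principal coding transcript in GENCODE 29, FDFT1 and SC5D kept the first and last places in both groups, but the middle order moved. By that length SQLE stood at 719, EBP at 641 and NSDHL at 514 with DMSO, so NSDHL went from place 2 to 4, and with 22d from 6 to 8. Which annotation the authors counted on is not given in the sources used here, so levels per length are approximate.

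Sequence upstream of the starts was compared because 7 of the 9 genes rose strongly together while NSDHL and EBP hardly moved. RefSeq starts (GRCh38.p14) were matched for 7 genes: LSS, CYP51A1, MSMO1, NSDHL, EBP, SC5D and DHCR7. The stretches of LSS (chr21:46228825-46229024, minus strand), MSMO1 (chr4:165327419-165327622, plus strand), DHCR7 (chr11:71448436-71448643, minus strand) and NSDHL (chrX:152830813-152830966, plus strand) are given below, 5′ to 3′ on the gene's strand, as the longest part of the 250 bases before the first listed start that lies in no GENCODE 29 exon. DHCR7 has a further listed start upstream. The first 3 are strongly risen genes and NSDHL one that moved little. Capitals mark CCAAT boxes (on either strand, ATTGG when reversed) and, in MSMO1, also a match to the sterol regulatory element TCACNCCAC with 1 mismatch; GC boxes are left in lower case.
LSS: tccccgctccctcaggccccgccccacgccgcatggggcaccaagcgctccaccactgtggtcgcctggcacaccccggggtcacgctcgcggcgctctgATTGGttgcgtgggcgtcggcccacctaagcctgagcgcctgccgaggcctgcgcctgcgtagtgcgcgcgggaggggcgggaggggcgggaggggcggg
MSMO1: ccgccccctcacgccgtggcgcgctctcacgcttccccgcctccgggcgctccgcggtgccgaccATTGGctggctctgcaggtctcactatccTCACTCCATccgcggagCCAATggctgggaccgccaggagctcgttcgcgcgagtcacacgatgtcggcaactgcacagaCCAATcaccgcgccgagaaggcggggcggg
DHCR7: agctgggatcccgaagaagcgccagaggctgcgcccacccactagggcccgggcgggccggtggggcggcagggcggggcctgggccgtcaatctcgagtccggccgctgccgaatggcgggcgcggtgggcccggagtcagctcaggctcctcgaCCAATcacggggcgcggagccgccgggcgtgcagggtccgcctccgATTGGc
NSDHL: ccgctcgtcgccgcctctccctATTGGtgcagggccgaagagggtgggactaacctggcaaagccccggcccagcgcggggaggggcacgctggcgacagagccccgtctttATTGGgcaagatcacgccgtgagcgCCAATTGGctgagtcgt

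The CCAAT box, which the factor NF-Y binds and which often lies near SREBP sites, was found on either strand in the 250 bases before the first listed start of 6 of the 7 genes, and in 32.0% of all 35116 RefSeq windows of that length. NSDHL had 5 matches, of which a pair overlaps in CCAATTGG, MSMO1 had 4, EBP 3, DHCR7 2, and LSS and SC5D 1 each; CYP51A1 had none. The GC box GGGCGG, a site of the factor Sp1, was in 6 of the 7 windows, against 42.6% of all windows, and LSS held 6 matches, 5 of them between positions -75 and -33 from the start. An exact match to TCACNCCAC on either strand was in 0 of the 7 windows and in 0.883% of all windows. With 1 mismatch allowed it was in the MSMO1 window, at positions -156 to -148, and in 20.9% of all windows. SC5D and DHCR7 had such a match only before their second listed start. The E-box CACGTG, a palindrome, was in the SC5D window, at positions -131 to -126, and in 6.34% of all windows. The windows were searched whole, and parts of them lie in annotated exons. Such bases were 177 of the 250 for CYP51A1, 96 for NSDHL, 50 for LSS, 46 for MSMO1 and 42 for DHCR7. For the first starts of EBP and SC5D no base of the window lay outside annotated exons. All matches counted there for EBP and SC5D thus lie in exons. The lack of a CCAAT box in CYP51A1 concerns a window mostly inside exons.

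**Figure D3:**
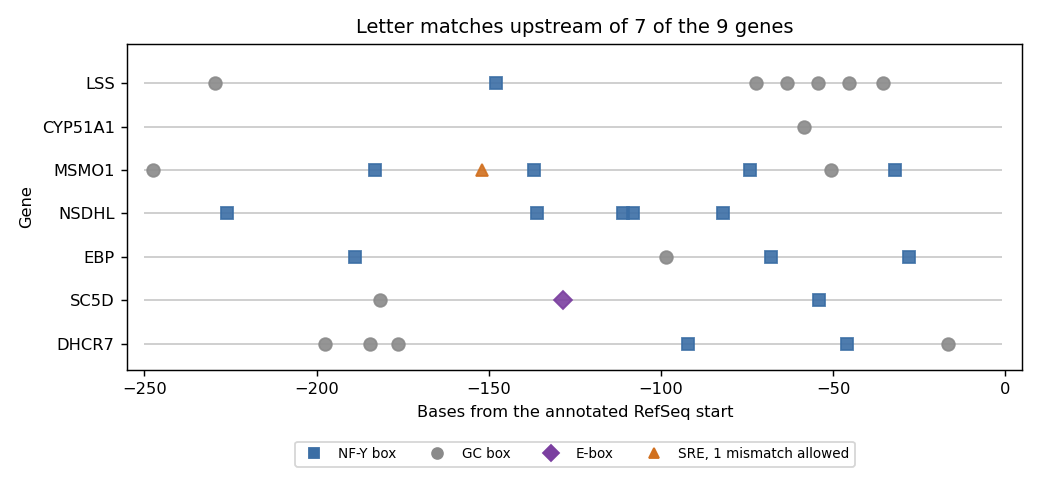
Positions of letter matches in the 250 bases before the first listed RefSeq start of 7 genes, 1 line per gene; squares are CCAAT (NF-Y) boxes, circles GC boxes, the diamond an E-box and the triangle the sterol element with 1 mismatch. LSS has 6 GC boxes and NSDHL 5 NF-Y boxes, and CYP51A1 has only a GC box. The windows include bases in annotated exons, which make up all of the EBP and SC5D windows and most of the CYP51A1 window.

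Of 6 other sterol-arm genes looked up, 5 rose and 1 fell, beside 28.5% higher and 29.6% lower over all genes tested. The median log2 fold change of the 6 was 1.47, against 0.005 over all genes tested. TM7SF2 and LBR encode reductases that can carry out the same step after CYP51A1. TM7SF2 went from 368, 463 and 360 normalized counts with DMSO to 1950, 2903 and 2143 with 22d (log2 fold change 2.54, SE 0.15, limma adjusted p = 8.1e-08). LBR, which is also a lamin receptor of the nuclear envelope, went from 2902, 2915 and 2885 to 2326, 2627 and 2308 (-0.26, SE 0.10, limma adjusted p = 0.037), and this call was lost in 9 of 15 alternative settings, among them quantile normalization, where the change was 0.00, scaling by library totals (-0.04, adjusted p = 0.73) and edgeR (-0.23, adjusted p = 0.062). Leaving out any library other than 22d replicate 2 lost it too, with changes between -0.27 and -0.23.

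The enzymes that strip the ring methyl groups work together, with ERG28 as their tether. HSD17B7, the ketone reductase of this group, went from 147.5 ± 10.7 to 527 ± 94.5 normalized counts (log2 fold change 1.82) and ERG28, listed as C14orf1, from 458 ± 31.4 to 1318 ± 217 (1.51; SD, n = 3 each). With MSMO1 at 2.94 and NSDHL at 0.38, the 4 genes of this step ranged over more than 2 log2 units. FAXDC2, a relative of MSMO1, rose by 1.42 from a low level of 40.9 ± 3.47 normalized counts.

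**Figure D4:**
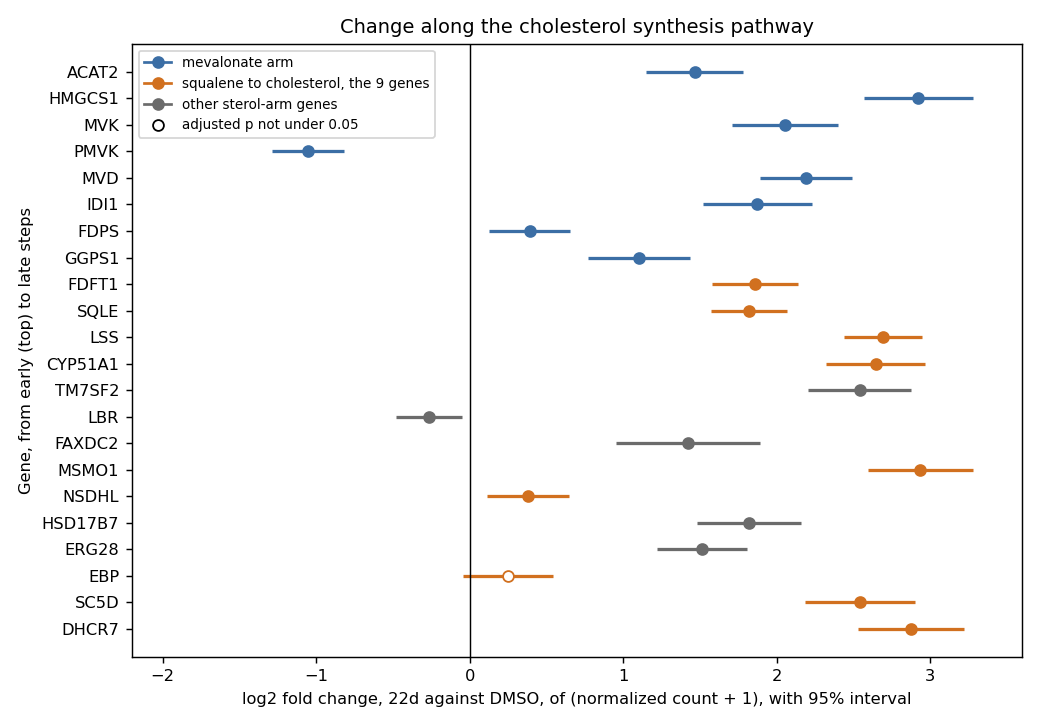
Log2 fold changes of log2(normalized count + 1), 22d against DMSO, with 95% limma intervals, for genes of the mevalonate arm (blue), the 9 genes (orange) and other sterol-arm genes (grey), from early steps at the top to late steps; GGPS1 is a side branch. Filled points passed the test. Most points lie between 1.11 and 2.94, with PMVK (-1.05) and LBR (-0.26) below 0 and FDPS, NSDHL and EBP under 0.40.

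Most genes of the mevalonate arm rose as well, with 8 of 9 higher and 1 lower, beside 28.5% higher and 29.6% lower over all genes tested. The median log2 fold change of the arm was 1.87. It was 2.54 for the 9 genes from squalene to cholesterol and 0.005 over all genes tested. HMGCS1, an early enzyme of the arm, rose by 2.92, close to MSMO1 at 2.94, and MVD (2.19), MVK (2.05), IDI1 (1.87), ACAT2 (1.46) and GGPS1 (1.11) followed. FDPS, which makes the farnesyl pyrophosphate that FDFT1 uses, had DMSO values of 4314, 3978 and 3373 and 22d values of 5029, 5727 and 4531 normalized counts (0.39, SE 0.12, limma adjusted p = 0.014), a small rise like that of NSDHL, and it no longer passed without DMSO replicate 3 (0.29, adjusted p = 0.064) or 22d replicate 2 (0.30, adjusted p = 0.076). PMVK, the phosphomevalonate kinase gene, fell by 1.05.

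Of 10 genes of SREBP control and sterol uptake, 9 were tested, 5 rose and none fell, beside 28.5% higher and 29.6% lower over all genes tested. SREBF2, which encodes SREBP-2, went from 10134, 10641 and 8703 to 22875, 19748 and 20944 normalized counts (log2 fold change 1.11, SE 0.11, limma adjusted p = 3.3e-06). SREBF1, whose product mainly drives fatty acid genes, did not pass (-0.30, SE 0.17, limma adjusted p = 0.16); its DMSO libraries spread from 4187 to 7431. Without DMSO replicate 3 it passed (-0.49, adjusted p = 0.019), whereas without DMSO replicate 1 it stood at -0.08. INSIG1, whose product retains the SREBP escort in the endoplasmic reticulum, rose by 2.64, and STARD4, which encodes a sterol transfer protein, by 3.29; the latter averaged 98.6 ± 12.3 (DMSO) and 986 ± 239 (22d; SD, n = 3 each). INSIG2, named after its value was seen, rose by 0.83.

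Several sterol enzymes draw electrons from partner proteins. Of 5 such donor or partner genes, 1 rose and 3 fell, beside 28.5% higher and 29.6% lower over all genes tested. POR, the reductase that serves CYP51A1 and squalene epoxidase, rose by 0.39 (SE 0.12, limma adjusted p = 0.015), and this was lost without DMSO replicate 1 (0.32, adjusted p = 0.079) or DMSO replicate 3 (0.34, adjusted p = 0.054). CYB5B, a cytochrome b5 gene, fell by 0.45 (SE 0.11, limma adjusted p = 0.0026), which was lost with quantile normalization (-0.21, adjusted p = 0.095) and scaling by library totals (-0.23, adjusted p = 0.076). CYB5A (-0.66) and PGRMC1 (-0.44), both named after their values were seen, fell as well.

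Genes for the turnover of the SQLE protein also went both ways, with 1 of 4 higher and 3 lower. The shares over all genes tested were 28.5% higher and 29.6% lower. MARCHF6, listed as MARCH6, encodes the ubiquitin ligase that marks squalene epoxidase for degradation and rose by 0.52 (SE 0.10, limma adjusted p = 0.00091). VCP, the ATPase that extracts marked proteins from the membrane, had a mean of 9597 ± 612 (DMSO) and 4600 ± 468 (22d; SD, n = 3 each) and fell by 1.06 in log2 units (SE 0.11, limma adjusted p = 3.8e-06). The ubiquitin-conjugating genes UBE2J2 (-0.66) and UBE2G2 (-0.76), named after their values were seen, were lower.

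Genes with a course like that of the 9 were looked for among 10260 others whose mean reached 100 normalized counts, by Pearson correlation over the 6 libraries with the mean of the 9 genes, each centred on its own mean. The closest 5 were CYLD, which encodes a deubiquitinase, BIRC2, an inhibitor of apoptosis, USP49, a further deubiquitinase, STARD4 and the homeobox gene HOMEZ, with r of 0.998 each. These r describe only 6 libraries in 2 groups, and 69 of the others had r above 0.99. The sizes differed, with log2 fold changes of 0.89 for CYLD, 1.14 for BIRC2, 0.75 for USP49, 3.29 for STARD4 and 0.76 for HOMEZ. Among the 9, the correlation of a gene with the mean of the other 8 was 0.988 or more for 7 genes, 0.852 for NSDHL and 0.677 for EBP. Of the 10260 others, 107 had an r with the mean of the 9 above that of DHCR7, at 0.988. For SQLE and SC5D that number was 0.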

How the data were processed

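RNA of MV4-11 cells was sequenced from 1 microgram of total RNA per library with a NEBNext Ultra RNA kit, per the labels' protocols. The tools FastQC, cutadapt, STAR, HTSeq and DESeq2 and the build hg38 are named in the submitters' processing notes. Versions, annotation and strand setting are not given in the sources used here. The deposited values are, per the file headers, a signal per library (reads over a size factor) and its mean. Beside them stand, per the file headers, a log2 fold change with error, a test score (change over error), and a p-value, raw and adjusted, all by the authors. Multiplied by 1 size factor per library, 100% of the deposited signal values were whole within 0.001 of a read, so read counts were recovered; 1 read was worth 0.840 to 1.14 normalized counts.

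Columns were assigned by arm and number. limma-trend (limma 3.58.1, R 4.3.3) was fitted on log2(value + 1), without a block, to genes with a mean of at least 10, with Benjamini-Hochberg adjustment over all genes tested. Alternatives were pseudocounts of 0.5 and 5, no filter or a mean of at least 50, quantile normalization, library totals, edgeR 4.0.16 and DESeq2 1.42.0 on recovered reads, a replicate block, and leaving out each library. The limma step was tested on simulated data with 200 of 13297 genes changed, far fewer than the 7718 called here. It recovered 43.3% of 1.5-fold, 82.1% of 2-fold and 100% of 4-fold changes, and 8% of its calls were false. Ratios of neighbours were compared by an exact permutation test. Figures used Python 3.11.15 and matplotlib 3.10.9. Positions and exons came from GENCODE 29 (GRCh38), upstream sequence from RefSeq (GRCh38.p14).

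The 9 genes and the pathway lists were chosen with earlier results of these data known. Named were the 9 genes, other sterol-arm and mevalonate genes, INSIG1, SREBF1 and SREBF2, and, from the remaining lists, genes called at 2-fold or more and the smallest p in each direction. The 5 genes closest in course were added. A few genes are counted in their lists but not reported by name here.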

Additional observations from a re-analysis of the deposited data

How the results depend on the processing

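Across 15 alternative settings, 7 to 9 of the 9 genes were called higher and 0 lower. There were 9 with scaling by library totals, quantile normalization or without 22d replicate 3, and 7 without DMSO replicate 3 or 22d replicate 2. FDFT1, SQLE, LSS, CYP51A1, MSMO1, SC5D and DHCR7 passed in all 15. With library totals the all-gene median log2 fold change was 0.225, and 65.6% of its calls were higher against 49.0% in the deposited scaling, so the changes given are relative to that scaling. With 1 library left out, calls over all genes numbered 6682 to 7428.

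The 1 sterol-arm gene called lower became 0 under library totals, quantile normalization, edgeR and the replicate block, and 0 to 1 with 1 library left out. Library totals left 1 electron donor gene and 1 storage and efflux gene lower, against 3 and 2. With 1 library left out, 1 to 3 storage and efflux genes were lower, 0 to 1 electron donor genes higher and 0 to 1 SREBP control genes lower. SREBF1 turned to 0.011 under quantile normalization. The change in ratio between FDFT1 and SQLE lay between -0.086 and 0.014 with 1 library left out, turning to 0.014 without 22d replicate 1. That between LSS and CYP51A1 lay between -0.127 and 0.099, turning to 0.099 without DMSO replicate 3 and 0.010 without 22d replicate 3. The cause of these changes was not tested.

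Libraries share replicate numbers across groups, but their deviations from the group means correlated at -0.03, -0.02 and -0.10 over 13297 genes, so the numbers were not taken as pairs. With the replicate block 8 of the 9 genes were called higher, and 7419 genes in all against 7718. Reads per library of the 9 genes ran from 154 (SC5D) to 26636 (FDFT1).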

Other observations

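Of 13 genes of cholesterol storage, oxidation and efflux, 8 were tested, 3 rose and 2 fell, with a median log2 fold change of -0.07. Over all genes tested 28.5% were higher and 29.6% lower, so these counts lie near the background. NPC1 and NPC2, which export cholesterol from lysosomes, rose by 1.30 and 1.04, NPC1 from 642, 704 and 634 to 2399, 1321 and 1340 normalized counts. CYP46A1, a sterol oxidase gene, rose by 1.77 on 3 to 45 reads per library, and that call was lost without 22d replicate 3 (1.48, adjusted p = 0.053). MYLIP, a ubiquitin ligase gene that sterol-sensing LXR factors induce, fell by 0.75 (SE 0.15, limma adjusted p = 0.00079), from 850, 610 and 601 normalized counts to 371, 404 and 432. NR1H3, the gene of LXR-alpha, named after its value was seen, fell by 0.52 with overlapping groups. The efflux pump gene ABCA1, also named after its values were seen, ranged from 70.2 to 191 with DMSO and from 42.0 to 180 with 22d and did not pass. The acyltransferase gene SOAT1, which stores cholesterol as esters, stood at 499 ± 39.6 and 526 ± 131.5 normalized counts (SD, n = 3 each; limma adjusted p = 0.80).

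The 9 genes took 0.0601% ± 0.0038 of all reads in genes in the DMSO libraries and 0.286% ± 0.048 in the treated ones (SD, n = 3 each). The largest share was 0.329%, in 22d replicate 1, and the smallest treated share 0.234%, in 22d replicate 3, against 0.0557% to 0.0625% in the DMSO libraries.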
